A study of Dorcoceras hygrometricum with 3 samples.

Results

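Of the gene-associated regions listed as differently methylated in dehydrating leaves of Boea hygrometrica, those described here lay upstream of a gene and were assigned to no other gene. A listed row was taken if its gene part was given as upstream and if its stretch of scaffold, by start and end, appeared in no other row of the same table. This left 556 of 3177 rows in the comparison of the hydrated leaf with the leaf at 70% relative water content (RWC), and 665 of 3660 rows in the comparison with the leaf at 10% RWC. A further 288 and 334 upstream rows were stretches listed for more than 1 gene and were left out. Together the 1221 rows concerned 1075 distinct genes. The choice used position and assignment only, although every row had been selected by the authors for a difference of methylation before deposit.

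Boea hygrometrica (Dorcoceras hygrometricum) is a resurrection plant, a plant that can dry out almost fully and resume growth when rewatered. The leaves came from plants grown in pots that were kept hydrated, dried until the RWC was 70% (moderate dehydration) or dried until it was 10% (desiccated). No genotype, age or drying time is given, and each condition is represented by 1 library of bisulfite-treated leaf DNA, with the number of plants behind it not stated. Differences between conditions therefore have no replicate check and cannot be told apart from variation among plants or in library preparation. Methylation levels are given as fractions, with limits of 0 and 1. Read counts and coverage are not in the tables, so the depth behind a level is unknown, and the identity of the leaf cells was not checked. Intervals in brackets are exact 95% binomial intervals on shares of regions. They cover counting error only, and regions of 1 library are not replicates of a condition, so no p-value is given.

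In plants, cytosines are methylated in the contexts CG, CHG and CHH, where H is any base but G, by separate maintenance enzymes and by a pathway in which small RNAs guide new methylation. Upstream of genes methylation often marks transposons and repeats, and at many promoters it goes with lower transcription, whereas CG methylation within gene bodies is common in expressed genes. The tables hold no context, strand or transcript level, so what follows concerns methylation levels alone.

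The first question was where these stretches lay. They were short, with a median length of 314 bp (202 to 1159) in the 70% RWC comparison and 315 bp (201 to 917) in the 10% RWC comparison. The gap between a region and the nearer edge of its gene had a median of 738 bp (quartiles 256 and 1262) and of 844 bp (quartiles 282 and 1292), respectively. The largest gaps were 1886 and 1881 bp, while 43 and 59 regions ran on past 2000 bp from the gene. No midpoint was farther than 2000 bp from the gene. In scaffold coordinates 289 regions lay before their gene and 222 after it at 70% RWC, and 288 and 309 at 10% RWC.

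Counted in steps of 250 bp, the step next to the gene held the most regions, 134 at 70% RWC and 162 at 10% RWC. In the 70% RWC comparison 45 regions ran across the gene's edge, and 68 did so in the 10% RWC comparison. These reached between 6 and 533 bp into the gene at 70% RWC and between 6 and 386 bp at 10% RWC, with at most 47.4% and 49.8% of a region inside. One example is the gene Bhs334_083V1.1, described as a pumilio homology domain protein, of a family of RNA-binding proteins, with the longest region at 1159 bp (scaffold334, 526596 to 527754). It was listed at 0 in the hydrated library and at 0.12 at 70% RWC, and was higher in the dehydrated library. At the other extreme, a 207 bp stretch stood 1881 bp from Bhs638_034V1.1, described as MYC2, a transcription factor of jasmonate signalling. Its level was 0.25 in the hydrated library and 0.10 at 10% RWC. Also far out were RPB1 (Bhs427_012V1.1), the large subunit of RNA polymerase II, at 1855 bp with 0.20 and 0.42, and VPS28 (Bhs771_043V1.1), of endosomal sorting, at 1866 bp with 0.18 and 0.40. Both were higher at 10% RWC, as was the region across the edge of Bhs1573_007V1.1, a manganese transport protein, with 0.05 and 0.15.

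**Figure D1:**
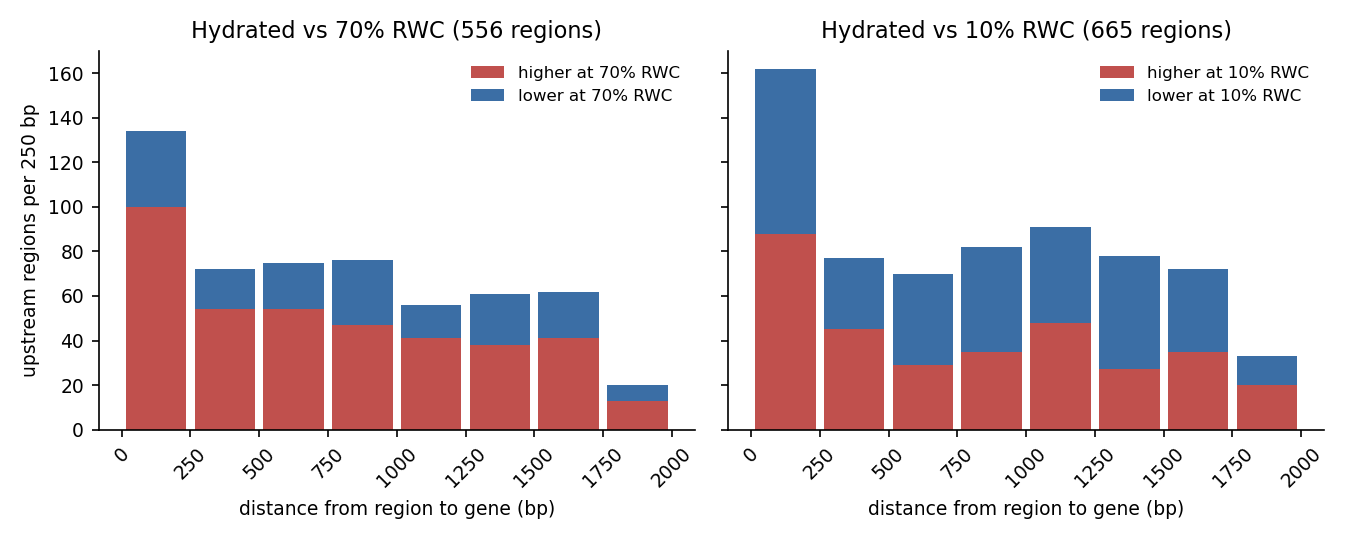
Number of single-gene upstream regions (y axis) by gap to the gene in bp (x axis, steps of 250 bp), for the comparison with 70% RWC (left) and with 10% RWC (right). Red parts are regions with a higher level in the dehydrated library and blue parts those with a lower level, and regions that touch or overlap the gene fall in the first step, the tallest in both panels.

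Most upstream regions were more methylated at 70% RWC than in the hydrated leaf, whereas at 10% RWC higher and lower regions were about equally many. At 70% RWC, 388 regions were higher, against 70.6% of all listed rows, and 168 were lower, against 29.4% of all rows. The share higher was 69.8% (65.8 to 73.6). It was 70.9% (68.2 to 73.5) over 1162 gene body rows of a single gene and 69% (64.7 to 73) over 506 downstream rows of a single gene, so the intervals of the gene parts overlapped. At 10% RWC, 327 upstream regions were higher, against 55.8% of all rows, and 338 were lower, against 44.2%. Here the upstream share of 49.2% (45.3 to 53) lay below the gene body share of 61.6% (58.9 to 64.2, 1336 rows), and the intervals did not overlap. The downstream share of 51.4% (47.1 to 55.7, 543 rows) lay within reach of the upstream one.

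Lower regions were well methylated in the hydrated library in both comparisons, and higher regions were weakly methylated there. The split by direction largely fixes this, since the levels of each region differed by a ratio of at least 1.96. Among upstream regions higher at 70% RWC the median level was 0.13 in the hydrated library and 0.39 in the dehydrated one, with a median difference of 0.25 (quartiles 0.18 and 0.32). Regions lower at 70% RWC had median levels of 0.44 and 0.17 and differed by -0.29 in the median. The same medians over all listed rows were smaller, at 0.22 and -0.21. In the 10% RWC comparison the higher regions had medians of 0.09 and 0.31 and differed by 0.21 (quartiles 0.15 and 0.29). The lower regions had medians of 0.48 and 0.18 and differed by -0.29 (quartiles -0.37 and -0.21). All rows had 0.18 and -0.24.

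Differences of at least 0.3 were more frequent upstream than over all rows on both sides at 70% RWC, and on the lower side at 10% RWC. At 70% RWC, 128 upstream regions, or 23%, were higher by at least 0.3, against 16.9% of all rows and 18.2% of downstream rows. Another 82, or 14.7%, were lower by as much, against 8.25% of all rows, 5.77% of gene body rows and 9.68% of downstream rows. At 10% RWC 75 regions, or 11.3% (8.98 to 13.9), were higher by at least 0.3, which is close to 9.43% of all rows and 11.4% of downstream rows. Lower by at least 0.3 were 159 regions, or 23.9% (20.7 to 27.3), against 13.6% of all rows, 7.78% of gene body rows and 19.2% of downstream rows. A level of at least 0.5 in either library was reached by 34% of upstream regions (30.1 to 38.1) at 70% RWC and 34.1% (30.5 to 37.9) at 10% RWC, against 25.3% and 23.6% of all rows. Differences of at least 0.2 were held by 273 higher and 117 lower regions at 70% RWC, against 41.3% and 16.3% of all rows, and by 182 higher and 272 lower regions at 10% RWC, against 23.9% and 28.5%. Differences of at least 0.5 were rare. At 70% RWC 14 of the 556 regions were higher by as much, where 2.14% of all rows were, and 14 were lower, where 1.23% of all rows were. At 10% RWC 11 of the 665 regions were higher, where 1.23% of all rows were, and 16 were lower, where 1.17% of all rows were. A difference of given size is possible only where the higher of the levels is at least as large, so these shares move together.

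**Figure D2:**
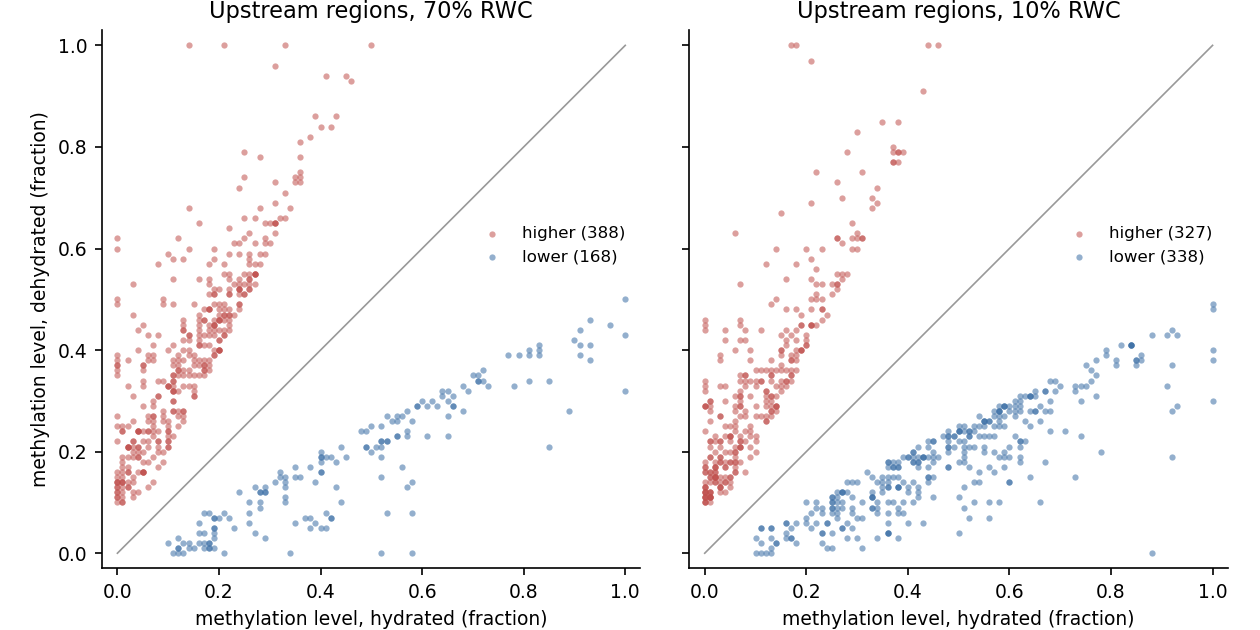
Methylation level (fraction) in the hydrated library (x axis) against the dehydrated library (y axis) for each single-gene upstream region at 70% RWC (left) and 10% RWC (right). Red points (388 and 327) lie above the line of equal levels and blue points (168 and 338) below it. The empty wedge along the line holds ratios below 1.96, the smallest among these upstream regions.

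Some regions were nearly unmethylated in 1 library and clearly methylated in the other. Each comparison held 38 upstream regions listed under 0.1 in the hydrated library and at 0.3 or above in the dehydrated one. In the opposite direction, from 0.3 or above to under 0.1, there were 15 at 70% RWC and 25 at 10% RWC. A level of exactly 0 was listed for 25 regions in the hydrated library and 7 in the 70% RWC library, and for 30 and 5 in the 10% RWC comparison. How many reads stand behind a level of 0 or 1 is unknown, and no fold is given for them. These counts are not set beside a count over all rows, so they are not read as particular to upstream regions.

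The direction went with the level reached. At 10% RWC the share of regions higher in the desiccated leaf was 77.7% (103 regions) where the higher of the 2 levels was 0.1 to 0.19. It was 59.8% (117 regions) at 0.2 to 0.29, 50.9% (218 regions) at 0.3 to 0.49 and 29.1% (23.3 to 35.4, 227 regions) at 0.5 or above. All rows showed the same order, with 72.2%, 66%, 50.4% and 38.2% (34.9 to 41.5), and in the top class the intervals only just overlapped. At 70% RWC there was no such steady order. The shares were 63.4%, 78.2%, 79.3% and 58.7% (51.4 to 65.8) for upstream regions, and 65.5%, 70.8%, 74.9% and 67.8% (64.4 to 71) for all rows.

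**Figure D3:**
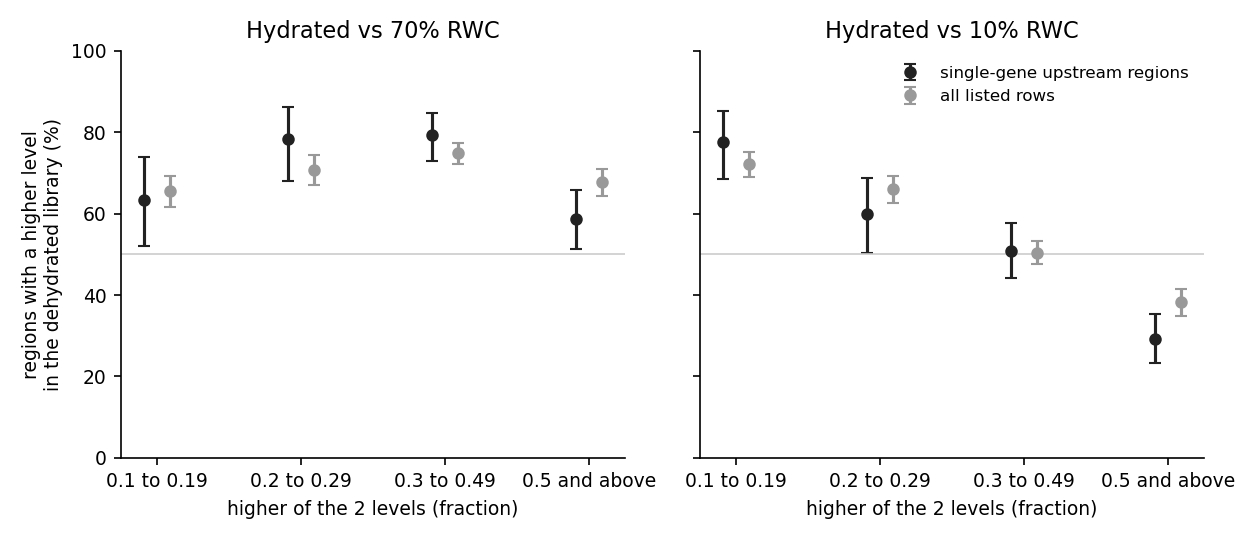
Share of regions with a higher level in the dehydrated library (y axis, percent) by the higher of the 2 levels of a region (x axis, fraction), at 70% RWC (left) and 10% RWC (right). Black points are single-gene upstream regions and grey points all listed rows, bars are exact 95% binomial intervals, and at 10% RWC the black points go from 77.7% down to 29.1%.

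By classes of gap, the share higher was greatest next to the gene, though by little and not by every measure. By midpoint distance at 70% RWC it was 72.4% in the nearest class and 76.7% in the middle one. In steps of 250 bp at 10% RWC it was 54.3% in the first step and 60.6% in the last (33 regions). Less than 500 bp from the gene 74.8% of regions (68.3 to 80.5, 206 regions) were higher at 70% RWC and 55.6% (49.1 to 62.1, 239 regions) at 10% RWC. From 500 to less than 1000 bp the shares were 66.9% of 151 regions and 42.1% (34.2 to 50.4) of 152. From 1000 bp on they were 66.8% of 199 and 47.4% of 274. Neighbouring classes had overlapping intervals in both comparisons, and across regions the rank correlation of gap and difference was -0.04 in both (556 and 665 regions of the same libraries). Regions that overlapped their gene were higher in 36 of 45 cases (80%) at 70% RWC and in 40 of 68 cases (58.8%) at 10% RWC. Their levels were low, with medians of 0.11 and 0.24 in the hydrated and 70% RWC libraries and 0.175 and 0.215 in the other comparison.

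Fewer of the upstream genes had a functional description than of the listed genes in general. A description, taken from the best match in the KEGG database as deposited, was given for 230 of the 556 genes (41.4%, against 49.1% of all rows) and for 265 of the 665 (39.8%, against 48.7%). Downstream rows of a single gene had similar shares, 41.5% and 42.5%, whereas gene body rows of a single gene had 56.4% and 57.8%. Among upstream regions the direction was nearly the same with and without a description. Higher were 70.4% and 69.3% at 70% RWC and 49.1% and 49.2% at 10% RWC. The descriptions rest on similarity, weak in 45 and 58 cases (an e-value above 1e-20), and stand below as the tables give them. By keywords, 110 genes fell in 1 or more of 18 functional lists at 70% RWC, 79 of them higher, and 138 at 10% RWC, 69 of them higher.

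By description the hormone list held the most upstream regions at 70% RWC. With Gene Ontology terms it held 16, fewer than the 23 of the kinase list and the 21 of the transporter list. Of 14 upstream regions of hormone genes, 9 were higher and 5 lower (median difference 0.26), and over all rows 65.6% of the list's genes were higher. The largest difference stood 91 bp from Bhs1259_044V1.1, a gibberellin receptor GID1, which binds the growth hormone gibberellin (scaffold1259, 449886 to 450233). The level was 0.08 in the hydrated library and 0.57 at 70% RWC. DELLA proteins are the growth repressors that GID1 removes, and all 4 of their upstream regions were higher at 70% RWC. Their levels were 0.12 and 0.36 (Bhs862_033V1.1), 0.17 and 0.43 (Bhs149_017V1.1), 0.26 and 0.52 (Bhs4907_003V1.1) and 0.36 and 0.78 (Bhs158_013V1.1). With ent-copalyl diphosphate synthase, an early step of gibberellin synthesis, 6 of 6 upstream regions and 11 of 11 listed rows of this group were higher, a group put together after its values were seen.

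Other hormone genes that were higher upstream at 70% RWC, named after their values were seen, include those of auxin. The auxin influx carrier Bhs316_007V1.1, which brings auxin into cells, had 0.09 in the hydrated library and 0.49 at 70% RWC. The auxin response factor Bhs189_025V1.1, a transcription factor, had 0.07 and 0.38, and the IAA protein Bhs32_130V1.1, a repressor of such factors, had 0.10 and 0.40. The GH3 gene Bhs482_006V1.1, of a family that conjugates hormones to amino acids, had 0.20 and 0.47. A cytokinin receptor kinase, Bhs48_022V1.1, was also higher, at 0.18 and 0.44, as was Bhs2298_007V1.1, a response regulator of the B class that acts downstream of such receptors, at 0.13 and 0.58. The jasmonate repressor gene Bhs5216_002V1.1 (ZIM domain) had 0.13 and 0.42.

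The lower hormone regions at 70% RWC belonged to abscisic acid synthesis and to genes described as brassinosteroid insensitive 1 (BRI1). Abscisic acid is the hormone of water deficit and is made from carotenoids. Upstream of Bhs1073_015V1.1, xanthoxin dehydrogenase, which makes abscisic aldehyde, the level was 0.83 in the hydrated library and 0.39 at 70% RWC. Zeaxanthin epoxidase, Bhs464_019V1.1, an earlier enzyme, had 0.26 and 0.06, and zeta-carotene desaturase, Bhs21_009V1.1, of the carotenoid pathway but outside the hormone list, had 0.41 and 0.19. In contrast, abscisic acid 8'-hydroxylase, Bhs2524_024V1.1, which degrades the hormone, had 0.03 and 0.26 and was higher. Of a carotenoid and abscisic acid group, put together after its values were seen, 1 of 5 upstream regions was higher. That group took in Bhs18_046V1.1, described only as protein phosphatase, and over all rows 63.6% of it was higher. BRI1 is a receptor kinase for brassinosteroids in Arabidopsis, and 3 of 4 upstream regions of genes so described were lower, a group put together after its values were seen. Over all rows 58.1% of it was higher. The 3 lower regions ran from 0.33 and 0.13 (Bhs1811_011V1.1) to 0.40 and 0.16 (Bhs3283_009V1.1).

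Genes of the antioxidant and redox list were higher upstream in 9 of 9 cases at 70% RWC (differences from 0.15 to 0.37, median 0.25). Over all rows 82.1% of this list was higher. Peroxidase Bhs12_006V1.1, which uses hydrogen peroxide to oxidise its substrates, had 0.06 in the hydrated library and 0.43 at 70% RWC. Glutaredoxin Bhs200_047V1.1, a small thiol reductase, had 0.07 and 0.39, and glutathione S-transferase Bhs422_008V1.1, which couples glutathione to other molecules, had 0.14 and 0.43. Ascorbate oxidase, of the cell wall space, was listed upstream at 2 genes, with 0.14 and 0.42 at Bhs109_041V1.1 and 0.12 and 0.27 at Bhs2143_011V1.1. It oxidises ascorbate rather than protecting it, and the keyword for ascorbate caught both genes. All 9 were at 0.16 or below in the hydrated library.

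Transporter genes were higher in 9 of 10 cases at 70% RWC (median 0.25; 76.4% over all rows). With Gene Ontology terms searched as well, 16 of 21 (76.2%) were higher, near the share over all rows. The largest difference was at Bhs2238_007V1.1, a mitochondrial carrier, with 0.31 and 0.69. An aquaporin of the plasma membrane, Bhs2171_016V1.1, a channel for water, had 0.02 and 0.17. A peptide carrier of solute carrier family 15, Bhs24281_001V1.1, was the exception, at 0.57 in the hydrated library and 0.23 at 70% RWC.

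Transcription factors were higher upstream in 6 of 8 cases at 70% RWC (median 0.23; 74% over all rows). The MADS-box gene Bhs784_014V1.1 had 0.26 and 0.63, WRKY 29 (Bhs9007_002V1.1) had 0.20 and 0.52 and MYC2 (Bhs1501_012V1.1) had 0.13 and 0.44. Outside the keyword list, the RAV-like factor Bhs4140_001V1.1 had 0.25 and 0.79 (scaffold4140, 7164 to 7730). The CONSTANS gene Bhs106_037V1.1, a zinc finger protein of the family that times flowering in Arabidopsis, had 0.41 and 0.94. In contrast, phytochrome-interacting factor 3 (Bhs263_021V1.1), which acts in light signalling, had 0.58 and 0.14, and pseudo-response regulator 7 (Bhs451_047V1.1), of the circadian clock, had 0.42 and 0.19.

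Chromatin and chaperone genes were few, and most were lower at 70% RWC. Of 4 genes of silencing and chromatin 3 were lower, beside 53.8% higher over all rows of the list. Dicer (Bhs18_073V1.1), which cuts double-stranded RNA into small RNAs, had 0.53 in the hydrated library and 0.08 at 70% RWC (scaffold18, 641273 to 641746). Of 2 genes described as the histone demethylase JARID1, Bhs211_057V1.1 was lower, with 0.57 and 0.24, and Bhs119_058V1.1 was higher, with 0.42 and 0.84. Among chaperones, which help proteins fold, 3 of 4 were lower, whereas 63.6% were higher over all rows. Chaperonin GroES (Bhs6510_004V1.1) had 0.34 and was listed at 0 at 70% RWC, and the DnaJ genes Bhs1344_004V1.1 and Bhs2145_007V1.1 had 0.50 and 0.20, and 0.52 and 0.21. Another DnaJ gene, Bhs445_009V1.1, was higher, at 0.34 and 0.68.

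Cell wall genes went both ways at 70% RWC, with 5 of 9 higher (69% over all rows) and 11 of 15 with Gene Ontology terms. Xyloglucan:xyloglucosyl transferase, which cuts and rejoins xyloglucan chains, had the largest increase of any described upstream gene. At Bhs2524_006V1.1 its region (scaffold2524, 61301 to 61510) was listed at 0 in the hydrated library and at 0.60 at 70% RWC. Enzymes that break down pectin were lower, with 0.78 and 0.33 at the polygalacturonase gene Bhs6046_007V1.1 and 0.56 and 0.17 at the pectate lyase gene Bhs4381_002V1.1. Beta-glucosidase was lower at Bhs672_011V1.1 (0.52 and 0.22) and higher at Bhs633_002V1.1 (0.19 and 0.46).

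Kinase and phosphatase genes were higher in 10 of 13 cases at 70% RWC (66.4% over all rows). With Gene Ontology terms searched as well, 14 of 23 (60.9%) were higher. Genes described as FLS2, in Arabidopsis the receptor kinase for bacterial flagellin, were higher at 5 of 5 upstream regions, all from 0.12 or less. With EFR genes this group, put together after its values were seen, was higher in 61.9% of all rows. The largest of these was 0.12 and 0.39 at Bhs4504_003V1.1. A calcium-dependent protein kinase, Bhs40_009V1.1, had 0.19 and 0.58. The largest difference in the list was lower, at the protein phosphatase gene Bhs18_046V1.1, with 0.91 in the hydrated library and 0.39 at 70% RWC.

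Genes of translation, splicing and DNA repair were mostly higher at 70% RWC, upstream as over all rows. For ribosome and translation 9 of 12 were higher (78.8% over all rows). Elongation factor 1-alpha (Bhs189_022V1.1), which brings aminoacyl-tRNA to the ribosome, had 0.29 and 0.65, while ribosomal protein L24e (Bhs13771_003V1.1) had 0.93 and 0.46. All 3 splicing genes were higher (78.6% over all rows), with 0.24 and 0.53 at splicing factor 45 (Bhs307_018V1.1), as were all 4 genes of replication and repair (82.4%), with 0.21 and 0.47 at topoisomerase III (Bhs106_034V1.1). The translation list includes an initiation factor of RNA polymerase I (Bhs451_005V1.1), a transcription protein that its keyword caught. Of genes of the ubiquitin system and proteases 5 of 8 were higher (70.3% over all rows), and the largest difference was lower, 0.77 and 0.39 at F-box protein 22 (Bhs5185_006V1.1).

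Among metabolic genes at 70% RWC, 4 of 6 of the lipid list (69.2% over all rows) and 2 of 3 of the sugar list (76.7%) were higher. With Gene Ontology terms searched as well, 6 of 16 lipid genes and 2 of 4 sugar genes were higher, so the majority of the lipid list depended on the search. The lipid list here holds zeta-carotene desaturase, of carotenoid synthesis, and an acyltransferase subunit of amino acid breakdown (Bhs4096_003V1.1). Glycerol-3-phosphate acyltransferase (Bhs14278_001V1.1), the first acylation in glycerolipid synthesis, had 0.52 in the hydrated library and was listed at 0 at 70% RWC. Beta-amylase, which releases maltose from starch, went both ways, with 0.19 and 0.51 at Bhs6088_001V1.1 and 0.39 and 0.14 at Bhs13122_002V1.1. The gene of an ethanolamine-phosphate transferase of phospholipid synthesis (Bhs1084_003V1.1) was listed at 0 in the hydrated library and at 0.49 at 70% RWC. NAD+ synthase (Bhs119_048V1.1) had 0.03 and 0.47. Geranylgeranyl reductase (Bhs4002_002V1.1), which supplies the side chain of chlorophyll and tocopherol, was lower, at 0.85 and 0.34. The gene described as a C4-hydroxylase (Bhs10451_001V1.1) had 0.89 and 0.28, the largest decrease at a described gene. The photosynthesis list held 1 upstream gene, described as the photosystem I apoprotein A1 (Bhs4075_001V1.1), with 0.19 and 0.39.

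The remaining named differences at 70% RWC were at genes of other or unknown function. The integrator subunit 7 gene Bhs3415_002V1.1 had 0.90 and 0.42. Genes without a description had the largest differences of all. The level was 0.14 and 1 upstream of Bhs12746_001V1.1, and 0.21 and 1 at the edge of Bhs2664_002V1.1. The lower ones included Bhs22_066V1.1, with 0.85 and 0.21 only 101 bp from the gene, and Bhs7909_002V1.1, with 0.58 and a listed 0. Among disease resistance genes described as RPM1, 2 of 3 were higher (53.3% over all rows), by 0.25 at Bhs734_036V1.1.

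At 10% RWC 6 of 6 upstream regions of the hormone list were lower (median difference -0.26), beside 50.7% higher over all rows of the list. Of these genes 2, Bhs1811_011V1.1 and Bhs2262_003V1.1, were also in the list at 70% RWC, and lower there. Gibberellin 3-beta-dioxygenase (Bhs2057_004V1.1), which makes the active hormone, had 0.92 in the hydrated library and 0.28 at 10% RWC (scaffold2057, 69677 to 69938). For 9-cis-epoxycarotenoid dioxygenase (Bhs1494_002V1.1), which commits carotenoids to abscisic acid, the levels were 0.84 and 0.41. Cytokinin-N-glucosyltransferase (Bhs11436_003V1.1), which inactivates cytokinin, had 0.39 and 0.14. All 3 upstream regions of genes described as BRI1 were lower, with 0.30 and 0.03 at Bhs198_034V1.1, where 51.7% of such rows were higher over the whole table. No DELLA or auxin gene was among the upstream regions at 10% RWC.

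Related genes outside the keyword list, named in part after their values were seen, went both ways at 10% RWC. Zeta-carotene desaturase (Bhs229_028V1.1) had 0.62 and 0.18. The kinase SRK2 (Bhs574_028V1.1), of a family that includes kinases activated by abscisic acid in Arabidopsis, had 0.45 and 0.22. Genes described only as protein phosphatase were lower at Bhs1916_015V1.1 (0.74 and 0.23) and Bhs18_046V1.1 (0.85 and 0.37) and higher at Bhs68_061V1.1 (0.21 and 0.54). Nothing in the tables places these phosphatases in a pathway. Of a cytokinin signalling group, put together after its values were seen, 1 of 4 upstream regions was higher, beside 52.2% over all rows. The group takes in the cytokinin enzyme Bhs11436_003V1.1 of the hormone list. In it the B-class response regulator Bhs2163_010V1.1 was lower, with 0.77 and 0.35. The A-class regulator Bhs225_074V1.1 was higher, with 0.07 and 0.53.

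Genes that the sugar and lipid keywords found by description were lower in all upstream regions at 10% RWC. Each list held 6 regions, all 6 lower, with median differences of -0.39 and -0.36, and they share the sterol 3beta-glucosyltransferase gene Bhs18_063V1.1 (0.64 and 0.15), which attaches glucose to membrane sterols. The sugar list consists otherwise of fructokinase and enzymes that transfer glucose to other molecules, including the cytokinin enzyme of the hormone list, and the lipid list includes zeta-carotene desaturase. Over all rows 38.2% of the sugar list and 46.3% of the lipid list were higher. With Gene Ontology terms searched as well, 0 of 7 sugar genes and 4 of 19 lipid genes were higher upstream. Fructokinase (Bhs14255_001V1.1), which phosphorylates fructose, had 0.62 and 0.21. Fatty acyl-CoA reductase (Bhs3741_005V1.1), which makes fatty alcohols such as those of wax, had 0.51 and 0.09 at 30 bp from the gene. Long-chain acyl-CoA synthetase (Bhs7323_002V1.1), which activates fatty acids, had 0.44 and 0.19.

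Genes of the antioxidant and redox list went both ways at 10% RWC, with 7 of 12 higher (median 0.11; 55.3% over all rows). The higher ones were low in the hydrated library, such as peroxidase Bhs12_006V1.1 with 0.06 and 0.40 and catalase Bhs3141_006V1.1, which breaks down hydrogen peroxide, with 0.05 and 0.23. The lower ones were high there, such as the glutathione S-transferase gene Bhs1945_007V1.1 with 0.74 and 0.33. The split by direction largely fixes this order. Glutamate-cysteine ligase (Bhs211_054V1.1), the first enzyme of glutathione synthesis, had 0.57 and 0.23.

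Transporter genes were higher in 9 of 19 cases at 10% RWC (median -0.13; 53.9% over all rows). The largest difference was at Bhs539_026V1.1, described as an ABC transporter of subfamily B, with 0.30 and 0.83. Carriers of solute carrier family 15, which in plants includes nitrate and peptide transporters, were lower at 3 of 5 regions, with 0.92 and 0.44 at Bhs451_026V1.1, where 50% of such rows were higher over the whole table. A tonoplast aquaporin, Bhs1940_007V1.1, had 0.16 and 0.03, and the proton pump gene Bhs949_010V1.1 had 0.16 and 0.34. Nitrate reductase (Bhs119_039V1.1), the first step of nitrate assimilation, is in no list and had 0.73 in the hydrated library and 0.15 at 10% RWC.

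Transcription factors were higher in 10 of 15 cases at 10% RWC (median 0.14; 57.6% over all rows). Of these 10, however, 2 are site-1 proteases that the keyword caught. The largest differences were lower, with 0.79 and 0.40 at the nuclear factor Y beta gene Bhs10995_001V1.1 and 0.56 and 0.26 at the MYB gene Bhs887_016V1.1. A nuclear factor Y gamma gene, Bhs6227_002V1.1, was higher, with 0.26 and 0.55, and MYC2 genes were higher at 2 of 3 regions, with 0.24 and 0.47 at Bhs862_008V1.1. WRKY 33 (Bhs107_105V1.1), a defence regulator in Arabidopsis, had 0.03 and 0.18.

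Kinase and phosphatase genes were higher in 9 of 17 cases at 10% RWC (50.3% over all rows). Protein phosphatase methylesterase 1 (Bhs8446_005V1.1) was listed at 1 in the hydrated library and at 0.40 at 10% RWC. The genes described as FLS2 or EFR, which in Arabidopsis recognise bacterial proteins, were again higher at 4 of 4 upstream regions, with 0.26 and 0.53 at Bhs9555_004V1.1. Over all rows 55.2% of that group was higher, a group put together after its values were seen. The gene described as an interleukin-1 receptor-associated kinase (Bhs2494_005V1.1) was lower across its own edge, at 0.48 and 0.24. Disease resistance genes described as RPM1 were higher in 2 of 5 cases (47.4% over all rows), and mlo (Bhs252_039V1.1), whose loss gives mildew resistance in barley, was listed at 0 and had 0.46 at 10% RWC.

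Genes of translation were higher in 12 of 20 cases at 10% RWC (62.5% over all rows), with the largest difference lower. A tRNA methyltransferase gene, Bhs2792_004V1.1, was listed at 1 in the hydrated library and at 0.30 at 10% RWC. Ribosomal protein L4 (Bhs3186_003V1.1) had 0.67 and 0.18, whereas ribosomal protein S18e was higher at both of its genes, with 0.01 and 0.28 at Bhs5692_002V1.1. Genes of replication and repair were higher at 4 of 4 regions (63.3% over all rows), with 0.12 and 0.57 at topoisomerase III (Bhs106_034V1.1). Endonuclease III (Bhs595_001V1.1), a DNA repair enzyme outside the list, had the largest difference of any described gene, with 0.21 in the hydrated library and 0.97 at 10% RWC (scaffold595, 24504 to 24773).

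The other lists at 10% RWC were small or even. Splicing genes were lower at 3 of 4 regions, where 60% were higher over all rows, with 0.59 and 0.29 at Bhs211_076V1.1, a protein of the tri-snRNP. Genes of the ubiquitin system and proteases were higher at 6 of 10 regions (60.2% over all rows), with 0.85 and 0.38 at the ubiquitin hydrolase gene Bhs190_001V1.1 on the lower side. Cell wall genes were higher at 3 of 6 (48.5%), with polygalacturonase listed at 0 in the hydrated library and at 0.34 at Bhs149_003V1.1. Chaperones were higher at 2 of 4 (65.4%), with 0.48 and 0.22 at the DnaJ gene Bhs198_022V1.1 and 0.11 and 0.34 at the GroEL gene Bhs3379_003V1.1. Shikimate hydroxycinnamoyltransferase (Bhs12657_001V1.1), of lignin synthesis, had 0.26 and 0.73, and p-coumarate 3-hydroxylase (Bhs32_039V1.1), which acts with it, had 0.59 and 0.25. The photosynthesis keywords found 2 genes, both higher (90% over all rows), and with Gene Ontology terms 5 of 11 were higher. One of the 2, with 0.27 and 0.54, is sulfite reductase (Bhs7846_004V1.1), an enzyme of sulfur assimilation that the word ferredoxin in its description caught. The trafficking keywords found only syntaxin 7 (Bhs3603_003V1.1) by description, which was lower at 0.35 and 0.13 (59.1% higher over all rows). With Gene Ontology terms 6 of 20 trafficking genes were higher.

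Genes without a description again held the widest differences at 10% RWC. The level was 0.88 in the hydrated library and listed at 0 upstream of Bhs422_025V1.1, and 0.92 and 0.19 upstream of Bhs2150_012V1.1. It was 0.17 and 1 upstream of Bhs2002_010V1.1, and 0.18 and 1 in a 201 bp stretch 67 bp from Bhs3527_001V1.1. Descriptions of uncertain meaning recurred as well. Genes described as the endonuclease subunit SLX1 were higher at 5 of 8 upstream regions at 70% RWC and at 6 of 8 at 10% RWC, near the 63.6% and 69.2% over all rows of this group, which was put together after its values were seen. The largest difference was 0.35 and 0.85 at Bhs288_027V1.1.

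**Figure D4:**
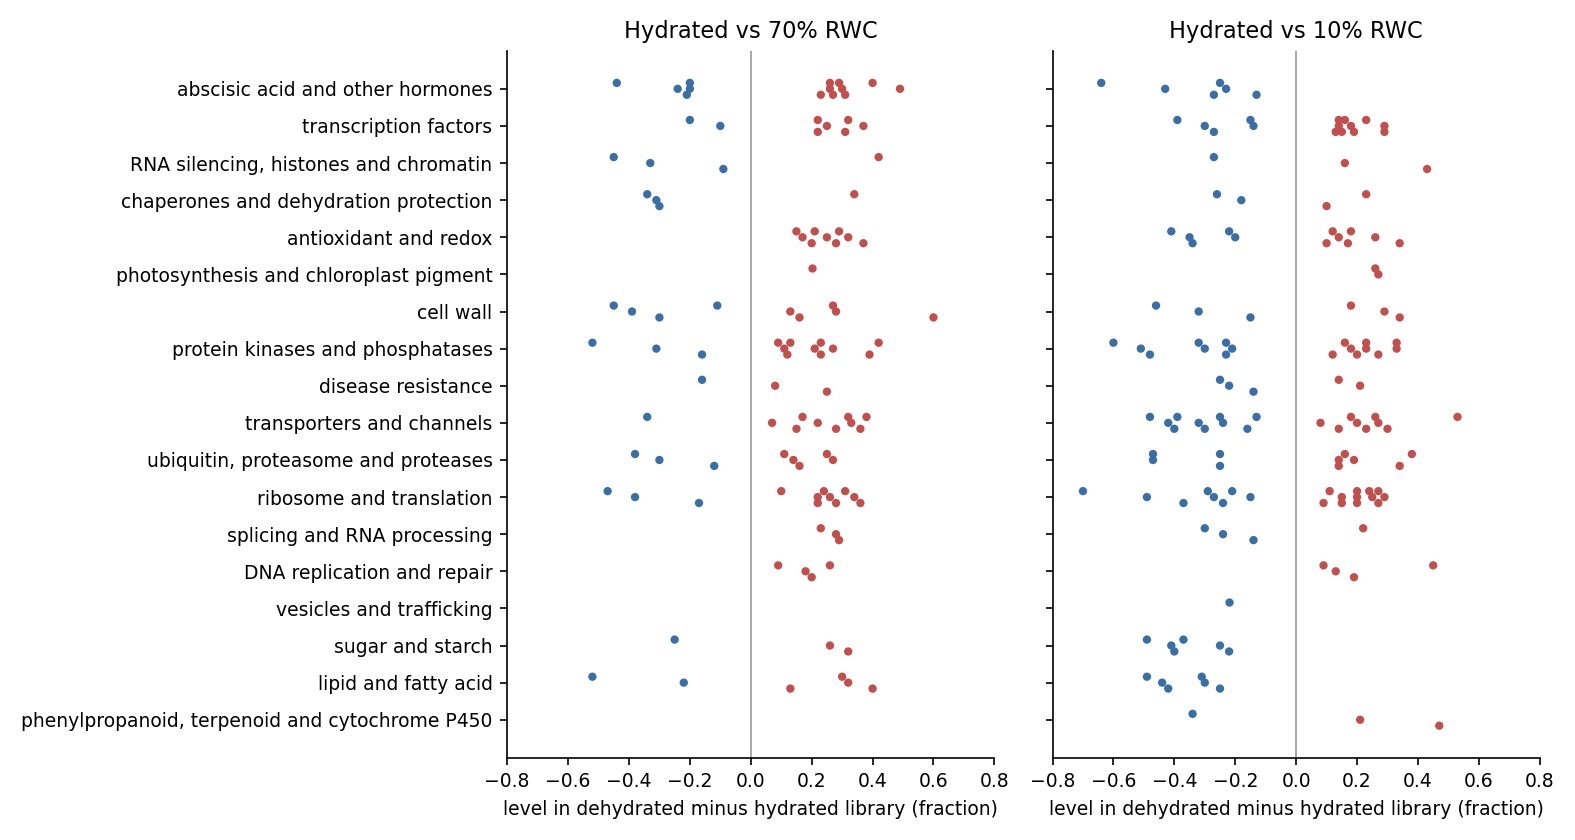
Difference of methylation level, dehydrated minus hydrated (x axis, fraction), for each upstream region whose gene falls in a functional list (y axis), at 70% RWC (left) and 10% RWC (right). Each point is 1 region, red for higher and blue for lower in the dehydrated library, and a gene in several lists appears in each. The hormone list has 9 of 14 points to the right at 70% RWC (65.6% over all rows) and 0 of 6 at 10% RWC (50.7%). Its genes differ between the panels except for 2, which were lower in both. At 10% RWC the sugar and lipid lists have 0 of 6 points each to the right (38.2% and 46.3% over all rows).

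A subset of upstream regions was listed in both comparisons. The comparisons share the hydrated library, so the values are given side by side and nothing is drawn from their likeness. Both tables held 146 genes with a single-gene upstream region, and for 132 the regions overlapped by at least 1 bp. This is 23.7% of the upstream regions at 70% RWC and 19.8% of those at 10% RWC. Of the 132, 84 were higher in both comparisons, 43 were lower in both and 5 went opposite ways. For the other 14 genes the listed regions did not overlap. No overlap over all listed rows is given beside these counts, so they are not read as particular to upstream regions.

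The regions with identical boundaries allow the 3 libraries to be read at the same stretch. There were 23 of them, and the hydrated level was the same in both tables for all 23. The 14 higher ones had median levels of 0.035 in the hydrated library, 0.225 at 70% RWC and 0.24 at 10% RWC. The 9 lower ones had medians of 0.44, 0.17 and 0.15. Within the higher group the 10% RWC level was above the 70% RWC level in 6 regions and below it in 8, and within the lower group it was above in 4, below in 3 and equal in 2. The medians of the dehydrated libraries were close to each other. Their distance from the hydrated library is fixed by the choice, since a region had to differ from it to be listed in either table.

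**Figure D5:**
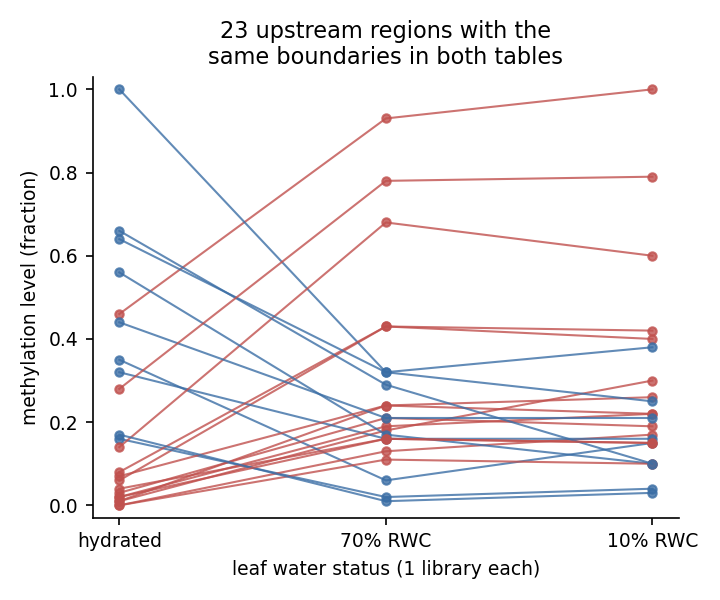
Methylation level (y axis, fraction) in the hydrated, 70% RWC and 10% RWC libraries (x axis, 1 library each) for the 23 upstream regions with the same boundaries in both tables. Each line is 1 region, red for the 14 that were higher and blue for the 9 that were lower in both dehydrated libraries, and all 23 had to differ from the hydrated library to be listed in both tables.

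Several described genes are among these. Glycoprotein 2-beta-D-xylosyltransferase (Bhs2133_006V1.1), which adds xylose to the sugar chains of plant glycoproteins, had 0.46 in the hydrated library, 0.93 at 70% RWC and 1 at 10% RWC (scaffold2133, 47426 to 47640). Peroxidase Bhs12_006V1.1 had 0.06, 0.43 and 0.40 in the same order. Cell division control protein 6 (Bhs107_016V1.1), which licenses DNA replication, had 0.01, 0.24 and 0.26 at 123 bp from the gene. These were higher in both dehydrated libraries. Pectate lyase (Bhs4381_002V1.1), which cuts pectin, was lower in both, with 0.56, 0.17 and 0.10. L-lactate dehydrogenase (Bhs500_011V1.1), of fermentation, had 0.44 and then 0.21 in both. Xylulokinase (Bhs638_007V1.1) had 0.17, 0.01 and 0.03. The widest lower difference was at Bhs2524_019V1.1, a gene without a description, which was listed at 1 in the hydrated library and had 0.32 and 0.38 in the others.

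For regions that overlapped without sharing both ends, the hydrated level is given per table because the stretches differ. Upstream of the JARID1 gene Bhs119_058V1.1 the levels were 0.42 and 0.84 at 70% RWC and 0.37 and 0.80 at 10% RWC. The other JARID1 gene, Bhs211_057V1.1, had 0.57 and 0.24, and 0.54 and 0.27. These demethylase genes thus differed from each other in direction in both comparisons. Pyruvate kinase (Bhs3049_003V1.1), the last step of glycolysis, had 0.83 and 0.40, and 0.81 and 0.38. The gene described as a C4-hydroxylase had 0.89 and 0.28, and 0.92 and 0.37. The calcium-dependent kinase Bhs40_009V1.1 was higher in both, with 0.19 and 0.58, and 0.17 and 0.35. The RAV-like factor Bhs4140_001V1.1 had 0.25 and 0.79, and 0.04 and 0.30, over stretches that shared only part of their length. Glycerol-3-phosphate acyltransferase was listed at 0 at 70% RWC and at 0.03 at 10% RWC, from 0.52 and 0.34 in its hydrated stretches.

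The upstream regions were spread thinly over the assembly. At 70% RWC they lay on 422 scaffolds, 336 of which carried 1 region, and at 10% RWC on 519 scaffolds, 425 of which carried 1. The most on a scaffold were 9, on scaffold211 at 70% RWC, of which 6 were higher, and 8, on scaffold3 at 10% RWC, of which 2 were higher. Across regions, the rank correlation of length and size of the difference was -0.06 at 70% RWC and -0.14 at 10% RWC (556 and 665 regions). In the body of another listed gene lay 19 and 17 of the regions, although each was assigned upstream of 1 gene only.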

How the data were processed

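Leaf DNA was fragmented by sonication and bisulfite-converted after adaptor ligation, then amplified by PCR, per the labels' protocols. The authors deposited 2 tables of differently methylated regions near genes, with the mean methylation level in the hydrated and in 1 dehydrated library as a fraction from 0 to 1, per the file headers. Not given in the sources used here are the aligner, the caller, its thresholds, the genome build, sequence contexts and the conversion rate. Scaffold positions are as deposited.

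Blank lines were left out. Stated directions and lengths were checked against levels and coordinates, with no mismatch. Gene ends were recomputed as start plus length minus 1, because a spreadsheet had rounded some. The gap to the gene is the number of bases between region and nearer gene edge, 0 where they overlap. The tables give no strand, so before and after refer to scaffold coordinates. Each gene is listed once per table, so a gene with several differing regions shows 1.

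With 1 library per condition no test was run. Shares carry exact 95% binomial (Clopper-Pearson) intervals, beside the same share over all rows. Functional lists were 18 sets of keywords searched in the descriptions, and 10 further groups were added after values had been seen. Of these groups, gibberellin, cytokinin, carotenoid and abscisic acid, BRI1, FLS2 and EFR, solute carrier family 15 and SLX1 are given here. The members and lists were chosen with earlier results of these data known. Named genes per comparison are the 8 largest increases and decreases with a description, the 3 largest each without one, the largest difference in each list, the 3 nearest and 3 farthest described genes and the 8 described genes in both tables with the largest mean difference. Of these some are not reported here, and other named genes, chosen after their values were seen, illustrate a group. The formula for the gap, written out again, and the interval of a share were checked on simulated regions that did not overlap their gene. The overlap between the comparisons was not checked in this way. Alternatives were minimum differences, a minimum length, midpoint distances, log2 ratios, Gene Ontology terms, other overlap rules and leaving out regions that overlap their gene or another listed gene. Tables were handled in pandas 2.3.3 and numpy 2.4.6, intervals computed with scipy 1.17.1 and plots drawn with matplotlib 3.10.9, all in Python 3.11.15.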

Additional observations from a re-analysis of the deposited data

Results flagged for a closer look

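At 5 genes the upstream regions of the 2 tables overlapped but went opposite ways, higher at 70% RWC and lower at 10% RWC, and this difference was not tested. Upstream of the phospholipid-transporting ATPase gene Bhs2589_002V1.1, which moves lipids across membranes, the difference was 0.32 at 70% RWC (0.26 and 0.58) and -0.30 at 10% RWC (0.44 and 0.14). For the coniferyl-alcohol glucosyltransferase gene Bhs3240_016V1.1, of lignin precursor metabolism, it was 0.26 (0.21 and 0.47) and -0.40 (0.76 and 0.36). For the 5'-3' exoribonuclease 2 gene Bhs3_029V1.1, which degrades RNA, it was 0.38 (0.33 and 0.71) and -0.20 (0.38 and 0.18). The regions of these genes shared only part of their length. They were 45735 to 45949 and 45545 to 45764 at Bhs2589_002V1.1, and 243949 to 244235 and 243699 to 243965 at Bhs3_029V1.1. At Bhs3240_016V1.1 they shared 192 bp.

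The other 2 genes have no description. At Bhs63_011V1.1 the differences were 0.41 and -0.31, over regions that share 1 bp. At Bhs6326_002V1.1 they were 0.30 (0.11 and 0.41) and -0.39 (0.67 and 0.28), although the regions share 355 bp. The hydrated level of nearly the same stretch is thus 0.11 in one table and 0.67 in the other. Of 43 pairs of regions that overlapped by at least 90% of each, the hydrated levels were within 0.05 in 38 and more than 0.2 apart only here. The 43 include the 23 pairs with identical boundaries, which show the same stretch of the same library and so had equal levels. What lies behind that gap was not tested.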

How the results depend on the processing

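The share of higher regions depended on the smallest difference asked for. The share higher at 70% RWC was 69.8% over all upstream regions, 61% of the 210 that differed by at least 0.3 and 50% of the 28 that differed by at least 0.5. At 10% RWC it was 49.2%, and 40.1%, 32.1% and 40.7% at minimum differences of 0.2, 0.3 and 0.5. As log2 ratios with 0.01 or 0.05 added to each level, the median at 70% RWC was 1.40 or 1.20 (higher) and -1.23 or -1.08 (lower). At 10% RWC it was 1.54 or 1.22 and -1.25 or -1.09. Over all rows, with 0.01 added, it was 1.24 and -1.26 at 70% RWC and 1.32 and -1.18 at 10% RWC. On this scale the lower regions at 70% RWC did not differ more upstream than over all rows. Measured from the region midpoint, the share higher at 70% RWC was 76.7% in the middle class of distance in place of 66.9%. That is above the 72.4% of the nearest class. Keeping regions of at least 300 bp, the median of the higher regions at 10% RWC was 0.19 in place of 0.21, and the share higher at levels of 0.5 or above was 22.3% in place of 29.1%, the last an alternative chosen after seeing the data. With Gene Ontology terms searched too, 173 in place of 110 genes fell in a list at 70% RWC. That search turned the majority direction of lipid genes at 70% RWC (66.7% higher, then 37.5%), photosynthesis genes at 10% RWC (100%, then 45.5%) and disease resistance genes at 10% RWC (40%, then 55.6%), within the wide intervals of these small lists. Requiring identical boundaries left 23 of the 132 overlapping regions. The cause of these shifts was not tested. The other 50 of 68 alternative values for the main shares, medians and counts stayed inside the exact 95% interval of the reported share or median or, for counts, within 1.5 times the reported count. No paired analysis was possible because each condition has 1 library and no replicate number. Depth limits every level by an unknown amount.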
